A study of Mus musculus with 5 samples.

Results

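The Ikaros family holds 5 zinc finger transcription factors, Ikaros (Ikzf1), Helios (Ikzf2), Aiolos (Ikzf3), Eos (Ikzf4) and Pegasus (Ikzf5). All 5 genes, chosen by symbol, were present among 35976 rows of counts from mature CD8 single-positive thymocytes of the mouse, and all 5 were among the 13666 genes tested. The cells were purified by flow cytometry from the thymus, and RNA was sequenced from 2 libraries of Runx3 +/+ mice (the wild-type genotype) and 3 libraries of Runx3 +/WRPW mice, which carry the WRPW allele of Runx3 on 1 chromosome; they are called wild type and heterozygous below, and no label gives age or strain. Runx3 is a Runt-domain factor of the CD8 lineage, and the count of a gene does not show which of its alleles was transcribed. No label says that libraries of 1 genotype were made from different mice; if they were not, the spread behind each p-value is technical.

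Ikaros proteins bind DNA through zinc fingers in their N-terminal part and pair with each other through zinc fingers at their C-terminal end, so that members form mixed complexes. They recruit the nucleosome remodelling and deacetylase complex (NuRD) and other corepressors, and they are known for roles in lymphocyte development. Helios and Eos are best known from regulatory T cells, in which Eos works with Foxp3, and Aiolos from B cells. Thymocytes that receive strong signals through the T cell receptor are also known to raise Helios.

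A C-terminal zinc finger is shown here for 3 of the genes, because members pair through fingers at this end. It was found by the codon pattern of a C2H2 finger, as the finger of Ikzf1 that had the highest mean identity to its best matches among the fingers of the other members, and the sequences come from the GENCODE M21 transcripts (GRCm38) with the longest coding sequence. Capitals mark the bases that are the same in the 3 genes shown, read 5′ to 3′ in the sense of the transcript.
Ikzf1: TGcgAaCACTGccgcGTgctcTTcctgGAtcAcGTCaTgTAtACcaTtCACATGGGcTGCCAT
Ikzf2: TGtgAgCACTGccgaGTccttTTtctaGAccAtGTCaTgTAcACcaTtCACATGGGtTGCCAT
Ikzf5: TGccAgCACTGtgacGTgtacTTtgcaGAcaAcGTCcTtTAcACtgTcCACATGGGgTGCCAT
Of the 63 bases, 38 are the same in these 3 genes. Ikzf1 and Ikzf2 have 82.5% of the bases in common, and Ikzf5 shares 68.3% with either of them. The longest identical run between any pair of coding sequences was 26 bases (Ikzf1 and Ikzf3), and no stretch of 50 bases was shared between annotated transcripts of any pair, so a read of at least 50 bases that matches exactly can be told apart between members.

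The genes lie on 4 chromosomes of GRCm38 (mm10). Ikzf1 spans chromosome 11 from 11685003 to 11772926 on the plus strand, and the other 4 are on the minus strand. Ikzf3 is also on chromosome 11 (98464902 to 98546031), Ikzf2 on chromosome 1 (69531214 to 69687245), Ikzf4 on chromosome 10 (128630843 to 128645991) and Ikzf5 on chromosome 7 (131388652 to 131410521). Exons of Pstk, annotated on the opposite strand, cover 81.3% of the exon bases of Ikzf5. Strand use in the counting is not stated, so reads of Ikzf5 and Pstk may not be separable. The overlaps with the opposite-strand genes Gm29114 in Ikzf2 and Gm26876 in Ikzf4 are 144 and 37 bases.

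Total counts ran from 15715242 to 43758550 per library, and each member had at least 476 counts in each library. The markers of the labelled cell type were abundant, with the 7 genes Cd3d, Cd3e, Cd3g, Cd2, Lck, Cd8a and Cd8b1 summing to 7521 and 7555 CPM in Runx3 +/+ and 6360 to 7134 CPM in Runx3 +/WRPW (counts per 1000000 counted reads, scaled by TMM factors, as are all levels here). Of these 7 markers 1 fell, Cd3d (log2 fold change -0.30, edgeR adjusted p = 0.039), named after its values were seen, and 6 did not pass. Transcripts of Runx3 were at 273 and 357 CPM in wild type and 394, 337 and 422 CPM in heterozygous libraries 1, 2 and 3. Runx3 +/WRPW library 2 stood apart, with a count at 27414 genes against 17237 to 18967 in the others. At the 7350 genes with counts in that library alone, the median was 5 counts and the highest 186. The least abundant member there, Ikzf5, had 476 counts. Such extra counts could still be part of a member's count in that library, and that part was not tested.

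The comparison asked which members differ in transcript level when 1 allele of Runx3 is WRPW. Ikzf4 rose 1.74-fold in Runx3 +/WRPW cells and was the only member to pass edgeR's quasi-likelihood test at an adjusted p under 0.05. Ikzf3 and Ikzf1 were lower in all 3 Runx3 +/WRPW libraries by small amounts that did not pass. Ikzf2 varied more within each genotype than between them, and Ikzf5 stood at nearly the same level in 4 of the 5 libraries. In all, 1 member of 5 was called, against 13.6% of all genes tested (6.24% higher and 7.33% lower). The genotypes did not overlap for 3 members, 1 above and 2 below, a share to be read against 48.3% of all genes tested (24.1% above and 24.2% below).

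**Figure D1:**
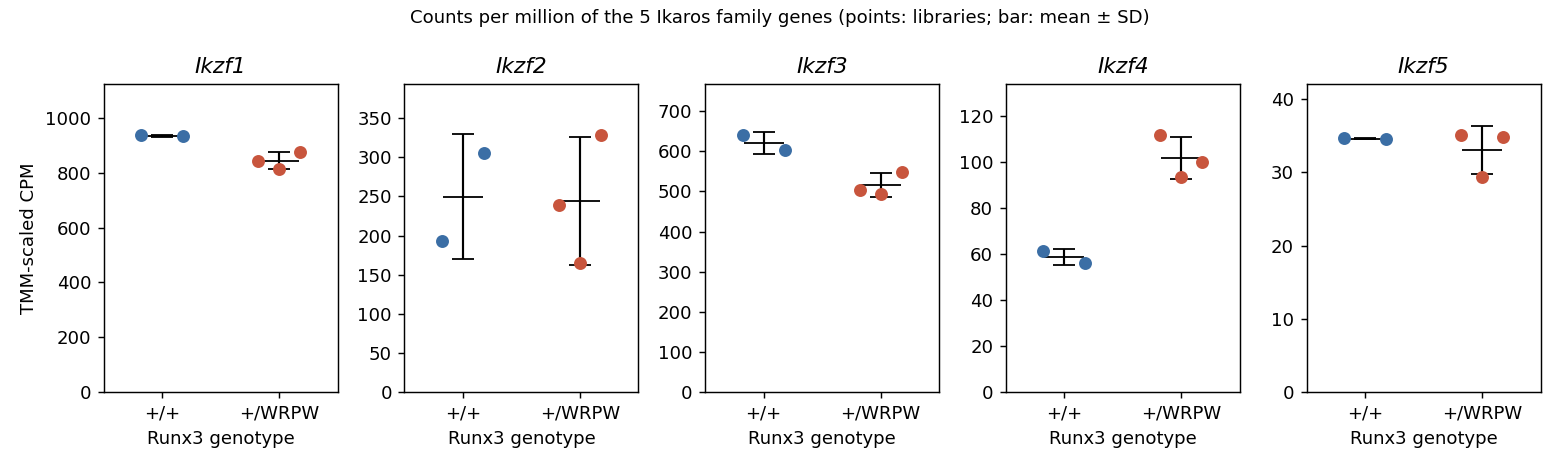
Level of each Ikaros family gene in TMM-scaled CPM on linear axes that start at 0 and differ between panels, with 1 point per library and the mean ± SD of each Runx3 genotype (n = 2 and n = 3). The 3 Runx3 +/WRPW points for Ikzf4 lie between 93.7 and 112 CPM, above both Runx3 +/+ points, while those for Ikzf2 spread from 166 to 328 CPM.

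Eos, encoded by Ikzf4, is the member that acts as a corepressor partner of Foxp3 in regulatory T cells. Its transcripts stood at 61.3 and 56.2 CPM in wild type, and at 112, 93.7 and 99.9 CPM in heterozygous libraries 1, 2 and 3. Every Runx3 +/WRPW library was above both Runx3 +/+ libraries, and the gap between the genotypes was larger than the spread within either. The means were 58.7 ± 3.59 CPM (SD, n = 2) and 101.8 ± 9.15 CPM (SD, n = 3), and the log2 fold change was 0.80 ± 0.09 (SE), with a 95% interval of 0.58 to 1.02 and an edgeR adjusted p = 0.0049. Of the 853 genes called higher, 398 (46.7%) rose at least as much. The call was lost without Runx3 +/+ library 1 (log2 fold change 0.83, adjusted p = 0.0685) and without Runx3 +/+ library 2 (0.73, adjusted p = 0.112), fits in which the remaining Runx3 +/+ library was assumed to vary like the other genotype and more genes were tested. When heterozygous library 2, with its wider set of detected genes, was left out, the log2 fold change of Ikzf4 was 0.85 (adjusted p = 0.00934).

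The change of Ikzf4 was also seen relative to its relatives, in ratios of counts within a library that no scaling enters. All these ratios reuse the counts of Ikzf4, so they are no separate evidence. Ikzf1 and Ikzf3 were themselves lower in Runx3 +/WRPW (log2 fold changes -0.14 and -0.27), which widens their ratios to Ikzf4. For each count of Ikzf4 there were 15.3 and 16.6 counts of Ikzf1 in wild type and 7.53, 8.69 and 8.77 in heterozygous libraries. The ratio of Ikzf3 to Ikzf4 went from 10.4 and 10.7 to 4.50, 5.26 and 5.49. The ratio of Ikzf4 to Ikzf5 was 1.77 and 1.63 in Runx3 +/+ and 3.19, 3.20 and 2.87 in Runx3 +/WRPW. None of these ratios overlapped between the genotypes, whereas the ratio of Ikzf2 to Ikzf4 did (3.16 and 5.44 against 2.14, 1.77 and 3.29). An exact permutation test over 2 and 3 libraries has 10 splits, so that its two-sided p, formed here by doubling the smaller one-sided p, cannot go below 0.2, and the ratios of Ikzf4 to Ikzf1, Ikzf3 and Ikzf5 reached that value.

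Ikaros, encoded by Ikzf1, is the founding member and is needed from the earliest lymphoid stages. It stood at 937 and 932 CPM in wild type and at 841, 814 and 876 CPM in heterozygous libraries, above 99.3% of the genes tested by mean CPM. The 3 Runx3 +/WRPW libraries all lay below the lower Runx3 +/+ library. The log2 fold change was -0.14 ± 0.06 (SE), with a 95% interval of -0.29 to 0.01, and did not pass (edgeR adjusted p = 0.184), although DESeq2 gave an adjusted p = 0.0474 for the same genes.

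Aiolos, encoded by Ikzf3, is the member closest to Ikaros in the adult lymphoid system and regulates B cell maturation. It stood at 640 and 602 CPM in wild type and at 503, 493 and 549 CPM in heterozygous libraries, again with no overlap. The means were 621 ± 27.1 CPM (SD, n = 2) and 515 ± 29.8 CPM (SD, n = 3). The log2 fold change was -0.27 ± 0.07 (SE), with a 95% interval of -0.44 to -0.09, which is unadjusted for the number of genes. It did not pass edgeR's test (adjusted p = 0.0654), whereas DESeq2 gave an adjusted p = 0.00358. Within libraries the ratio of Ikzf1 to Ikzf3 counts was 1.46 and 1.55 in Runx3 +/+ and 1.67, 1.65 and 1.60 in Runx3 +/WRPW, so each Runx3 +/WRPW library held fewer counts of Ikzf3 per count of Ikzf1 than either Runx3 +/+ library. Its exact permutation p was 0.2, the smallest possible. The summed markers of the labelled cell type were lower in Runx3 +/WRPW too, without overlap, like Ikzf1 and Ikzf3, and their part in these differences was not tested.

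Helios, encoded by Ikzf2, stood at 193 and 306 CPM in wild type and at 239, 166 and 328 CPM in heterozygous libraries. Library 2 of Runx3 +/+ and library 3 of Runx3 +/WRPW were high, and library 2 of Runx3 +/WRPW was the lowest. Counts per library were 2690 to 10458, so counting error is far smaller than these gaps. The genotypes had nearly the same mean, 250 ± 79.5 CPM (SD, n = 2) against 244 ± 81.6 CPM (SD, n = 3). The log2 fold change was -0.03 ± 0.31 (SE; edgeR adjusted p = 0.967), with a 95% interval of -0.78 to 0.72 that allows a change of either sign. Leaving out Runx3 +/+ library 2 gave 0.34 and leaving out Runx3 +/WRPW library 2 gave 0.18, so its sign rests on single libraries. The biological coefficient of variation fitted for Ikzf2 was 0.243, against 0.08 to 0.0964 for the other 4 members.

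Pegasus, encoded by Ikzf5, is the most distant relative and is expressed in many tissues. It stood at 34.6 and 34.5 CPM in wild type and at 35.1, 29.3 and 34.8 CPM in heterozygous libraries. Library 2 of Runx3 +/WRPW was the low one, and the genotypes overlapped. The log2 fold change was -0.06 ± 0.10 (SE), with a 95% interval of -0.29 to 0.18 (edgeR adjusted p = 0.748), and it was 0.01 without that library. Pstk, whose exons overlap it, had a log2 fold change of -0.03 ± 0.14 (SE).

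**Figure D2:**
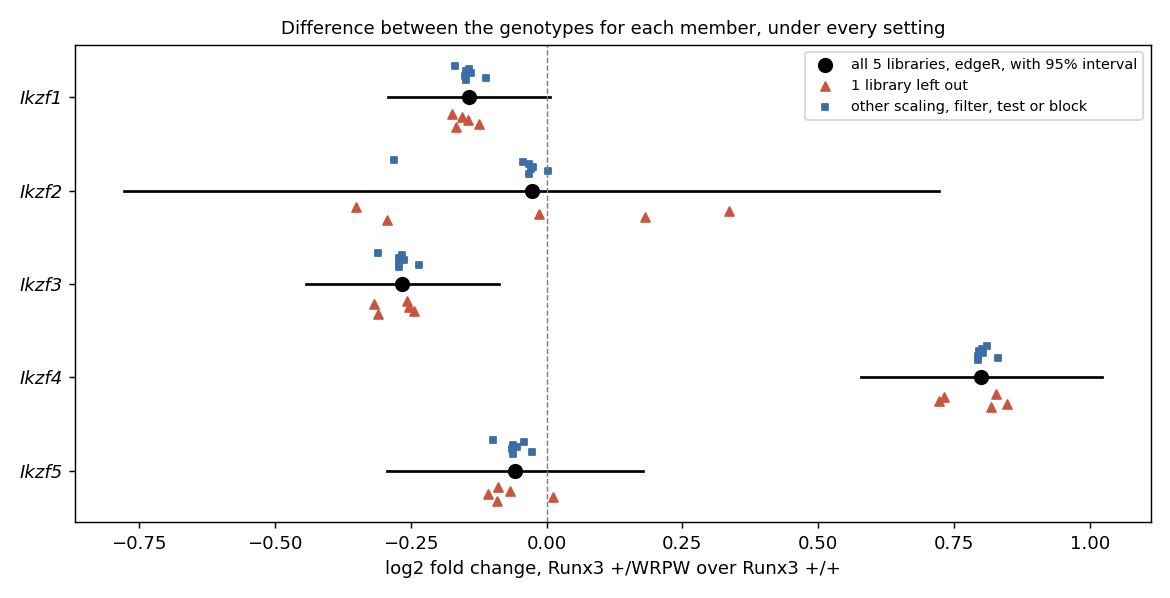
Log2 fold change of each member, Runx3 +/WRPW over Runx3 +/+, with the 95% interval of the edgeR fit on all 5 libraries (black), the values with 1 library left out (triangles) and those under another scaling, filter, test or replicate block (squares). Ikzf4 stays between 0.72 and 0.85 under every setting, and Ikzf2 crosses 0.

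Levels of different members were compared per kilobase of annotated exon. Averaged over the 5 libraries, Ikzf1 was at 152 ± 9.43 CPM per kilobase (SD, n = 5), Ikzf3 at 63.7 ± 7.24, Ikzf2 at 21.2 ± 6.04, Ikzf4 at 14.1 ± 4.09 and Ikzf5 at 5.88 ± 0.43. Neighbours in this order did not overlap over the libraries, except Ikzf2 (14.3 to 28.3) and Ikzf4 (9.38 to 18.6). Exons of Pstk cover 81.3% of the exon bases of Ikzf5, and strand use in the counting is not stated. The level of Ikzf5 per kilobase and its place in this order are therefore uncertain, as are sums and shares that include it. In the Runx3 +/+ libraries Ikzf2 was above Ikzf4, with 16.7 and 26.3 against 10.2 and 9.38 CPM per kilobase. In Runx3 +/WRPW library 2 that order was reversed, with Ikzf2 at 14.3 and Ikzf4 at 15.6 CPM per kilobase. The step from Ikzf1 to Ikzf3 depended on the length used, because the exons annotated for Ikzf3 sum to 8754 bases while its coding transcript has 3658. With the longest coding transcript as the length, an alternative chosen after the data were seen, Ikzf1 stood at 158 to 182 and Ikzf3 at 135 to 175 CPM per kilobase, so that they overlapped.

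As a share of the summed level of the 5 members per kilobase, Ikzf4 made up 3.81% and 3.45% in wild type and 7.50%, 6.73% and 6.28% in heterozygous libraries. Ikzf3 went from 27.3% and 25.3% to 23.1%, 24.2% and 23.6%. The share of Ikzf1 was 57.1% to 60.7% in the 5 libraries, with the genotypes overlapping. These shares take the union of exons as the length. By the longest coding transcript, Ikzf1 made up 44.4% to 47.1%. Ikzf3 then made up 44.1% and 41.5% in wild type and 38.6%, 40.2% and 39.2% in heterozygous libraries. Ikzf4 made up 3.00% and 2.75% against 6.10%, 5.43% and 5.07%. By the union of exons, the summed level itself was 268 and 272 CPM per kilobase in Runx3 +/+ and 248, 232 and 265 in Runx3 +/WRPW. For this sum and for the shares of Ikzf3 and Ikzf4 the exact two-sided permutation test gave its smallest possible p of 0.2.

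**Figure D3:**
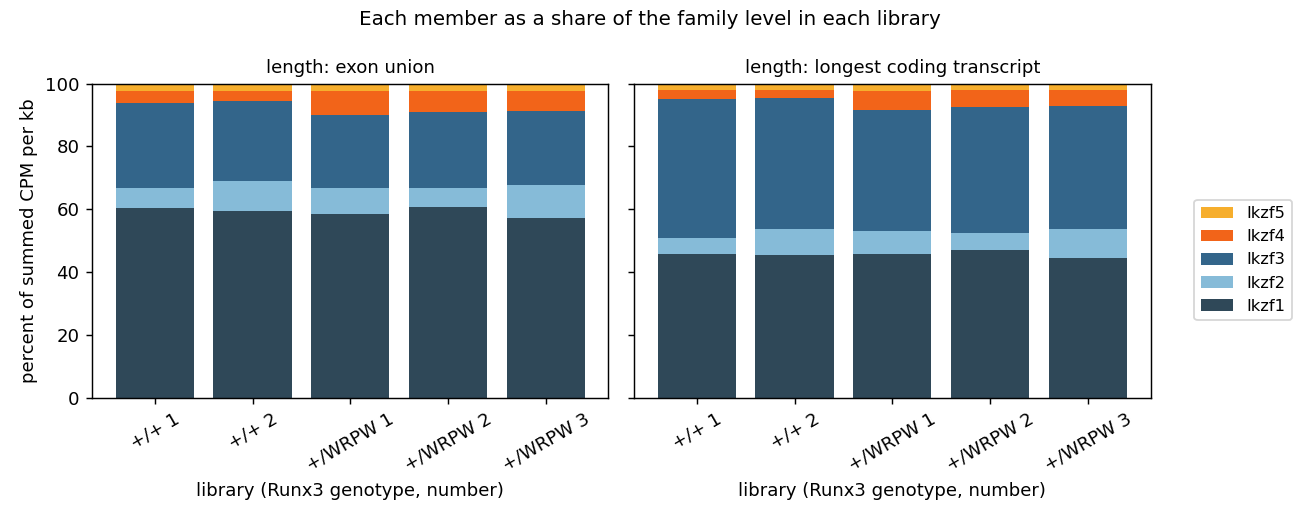
Share of each member in the summed CPM per kilobase of the family, in percent, with 1 stacked bar per library and the gene length taken as the union of exons (left) or the longest coding transcript (right). The Ikzf4 segment is wider in the 3 Runx3 +/WRPW bars in both panels, and the division between Ikzf1 and Ikzf3 differs between the panels.

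For each member, the 3 genes with the most similar pattern were found among 10243 tested genes by the root mean square difference of gene-centred log2 CPM over the 5 libraries. Nearest to Ikzf4 were Fpgt (difference 0.06), Junb (0.06), a subunit of the transcription factor AP-1, and Mgat4a (0.06), a glycosyltransferase. Junb stood at 157 and 162 CPM in wild type and at 298, 268 and 277 CPM in heterozygous libraries, with a log2 fold change of 0.82 ± 0.07 (SE; edgeR adjusted p = 0.00222). Like Ikzf4, it was highest in Runx3 +/WRPW library 1. Nearest to Ikzf2 were Hspa4l (0.09), a chaperone of the Hsp110 family, Chordc1 (0.09), which binds Hsp90, and Apc2 (0.12). Chordc1 stood at 184 and 316 CPM in wild type and at 219, 174 and 297 CPM in heterozygous libraries, with the same libraries high and low as for Ikzf2. Among the genes nearest to Ikzf1 were Cspp1 and Ankrd40 (each 0.01), while those nearest to Ikzf3 were Hsd17b12, Alg2 and Luc7l3 (each 0.02), and those nearest to Ikzf5 were Msantd4, Drosha and Lin7c (each 0.02). Small differences are easily reached by genes that vary little, as Ikzf1 and Ikzf5 do. All these genes were picked by their values in the same 5 libraries. Their likeness to a member, with the changes of Junb and Chordc1 given above, therefore follows from the choice and is no separate evidence.

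**Figure D4:**
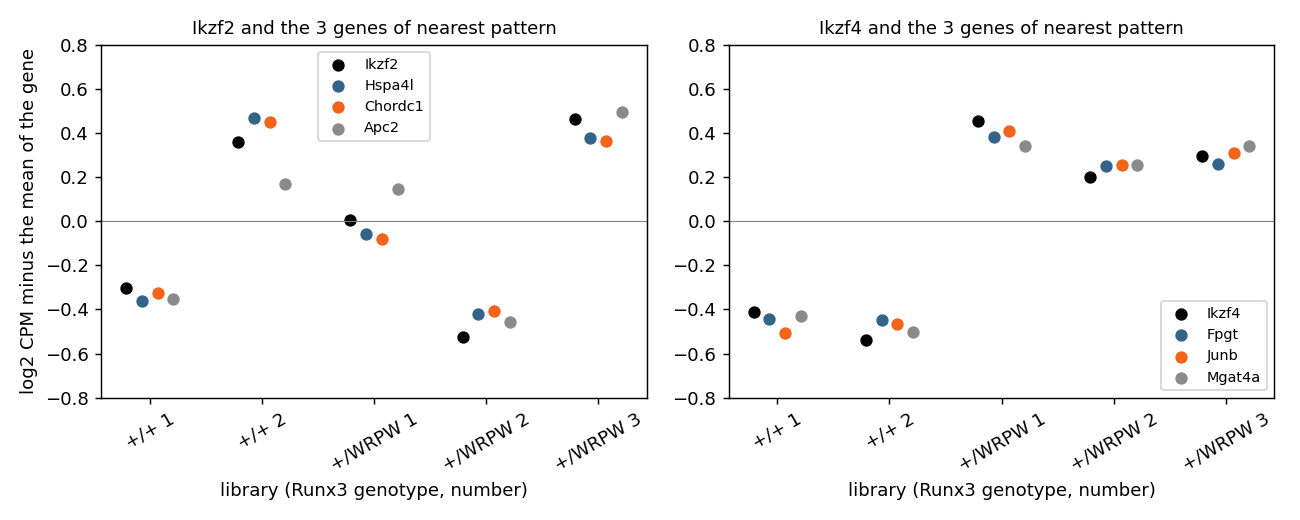
Log2 CPM minus the mean of the gene (y axis) in each of the 5 libraries (x axis) for Ikzf2 and for Ikzf4 (black), each with the 3 tested genes of nearest pattern. The Ikzf4 panel separates the genotypes, whereas in the Ikzf2 panel Runx3 +/+ library 2 and Runx3 +/WRPW library 3 are high.

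Of the nearest protein-coding genes on each side of the members, 6 of 10 were tested and 1 was called, against 13.6% of all genes tested. Fignl1, 14505 bases from Ikzf1 and encoding an ATPase of homologous recombination, fell, with means of 27.2 ± 1.52 CPM (SD, n = 2) in wild type and 11.6 ± 2.05 CPM (SD, n = 3) in heterozygous libraries and a log2 fold change of -1.22 ± 0.16 (SE; edgeR adjusted p = 0.00726). Leaving out Runx3 +/+ library 1 or 2 ended that call. Beside Ikzf4, Rps26, a ribosomal protein gene 4096 bases away, had a log2 fold change of 0.21 ± 0.07 (SE; adjusted p = 0.112) and Suox, a sulfite oxidase gene, 0.21 ± 0.06 (SE; adjusted p = 0.0785), neither passing edgeR's test. Both are smaller than the 0.80 of Ikzf4. Zpbp2 and Grb7, which flank Ikzf3, had log2 fold changes of -0.59 ± 0.44 and 0.30 ± 0.29 (SE), far from passing.

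Among the partners, the NuRD complex, through which Ikaros proteins repress genes, had 4 of 13 subunit genes called (30.8%, against 13.6% of all genes tested), 2 in each direction and none by more than 1.29-fold. Its median log2 fold change was -0.17, beside 0.02 for all genes tested. Earlier results of these data were known when the list was chosen, so the share called is a description. Chd3, a remodelling ATPase of the complex, stood at 1335 and 1187 CPM in wild type and at 1591, 1536 and 1577 CPM in heterozygous libraries, a rise of 0.32 ± 0.07 (SE) on the log2 scale (edgeR adjusted p = 0.038). The related ATPase gene Chd4 had a log2 fold change of -0.06 ± 0.09 (SE) and did not pass. Mbd2, a subunit that binds methylated DNA, rose from 228 ± 21.3 to 293 ± 16.1 CPM (SD, n = 2 and n = 3; edgeR adjusted p = 0.0429). The scaffold genes Mta1 (150 and 146 against 123, 117 and 115 CPM) and Mta2 (380 and 402 against 322, 306 and 306 CPM) both fell by 0.32 on the log2 scale, with edgeR adjusted p = 0.0206 and 0.0264. These 4 calls were fragile, and calls over all genes also became fewer with 1 library left out. None of the 4 was left without Runx3 +/WRPW library 1 or 3, fits that called 768 of 13446 and 950 of 13621 genes. Without Runx3 +/WRPW library 2, 2 were left (Mta1 and Mta2), and 1431 of 13303 genes were called. Without Runx3 +/+ library 1 and 2 in turn, the log2 fold change was 0.37 and 0.23 for Chd3 and 0.42 and 0.26 for Mbd2. It was -0.33 and -0.35 for Mta1 and -0.40 and -0.29 for Mta2.

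The other corepressors and remodellers known to bind Ikaros proteins (Sin3a, Sin3b, Ctbp1, Ctbp2, Rbbp8, Smarca4, Smarcb1 and Smarcc1) had 0 of 8 called in edgeR, DESeq2 or limma-voom, with 1 at an unadjusted p under 0.05 in edgeR and a median of -0.10, against the same 13.6% called and median of 0.02 for all genes tested. Genes listed for turnover and phosphorylation were also tested for transcript level. They encode the cereblon ubiquitin ligase (Crbn, Ddb1, Cul4a, Cul4b, Rbx1), casein kinase 2 and protein phosphatase 1. Whether these enzymes act on Ikaros proteins in mouse thymocytes was not tested. Of these 11 genes, 0 were called in edgeR or limma-voom and 2 in DESeq2. In edgeR, 2 had an unadjusted p under 0.05, and the median was -0.15. Of all 13666 genes tested, edgeR called 1855, limma-voom 1907 and DESeq2 2705, with a median of 0.02 in edgeR. An unadjusted p under 0.05 in edgeR was reached by 4077 of the 13666, a share to be read beside both lists. Crbn, the substrate receptor of that ligase, stood at 57.4 and 68.2 CPM in wild type and at 90.4, 57.2 and 88.4 CPM in heterozygous libraries, overlapping between the genotypes.

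A list of 23 genes was taken as reported targets of Ikaros family members in lymphocytes, without a source for each. Of these, 17 passed the count filter, 4 fell, 1 rose and 12 did not pass. The share called was 29.4%, against 13.6% of all genes tested (6.24% higher and 7.33% lower). The medians were -0.07 for these 17 and 0.02 for all genes tested. As with the other lists, earlier results of these data were known at the choice, so the share is a description. Notch3, a receptor of early thymocytes, stood at 19.6 and 27.4 CPM in wild type and at 2.83, 5.72 and 3.17 CPM in heterozygous libraries, a fall of 6.15-fold (edgeR adjusted p = 0.0062). Cd79b, a B cell receptor subunit also transcribed in early T cells, was 3.88-fold lower, from 7.56 ± 0.00801 to 1.92 ± 0.233 CPM (SD, n = 2 and n = 3; edgeR adjusted p = 0.00426). Foxp3, whose protein partners Eos, stood at 5.09 and 9.63 CPM in wild type and at 1.19, 0.677 and 0.414 CPM in heterozygous libraries (edgeR adjusted p = 0.0123), opposite in direction to Ikzf4. Bcl2, the survival gene, rose 2.17-fold (edgeR adjusted p = 0.0105), and Dntt, named after its values were seen, fell 3.57-fold (edgeR adjusted p = 0.028). Calls were fewer without a Runx3 +/+ library, in this list as over all genes. Without Runx3 +/+ library 2, the log2 fold change was -2.35 for Notch3, -1.97 for Cd79b, -2.73 for Foxp3 and 0.87 for Bcl2.

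Of 16 genes raised by strong T cell receptor signals, among which Helios is often counted, 7 fell, 1 rose and 8 did not pass. The share called was 50%, against 13.6% of all genes tested (6.24% higher and 7.33% lower). The median log2 fold change was -0.55, beside 0.02 for all genes tested. Since the list was chosen with earlier results of these data known, the share describes the list and does not test it. Irf4, a transcription factor of activated T cells, stood at 22.3 and 26.4 CPM in wild type and at 9.91, 9.17 and 10.2 CPM in heterozygous libraries, with no overlap. Nr4a1, an orphan nuclear receptor gene, stood at 99.6 and 149 CPM in wild type and at 50.5, 47.3 and 50.3 CPM in heterozygous libraries. Tnfrsf9, a costimulatory receptor gene, was 1.95-fold lower and Bcl2l11, a pro-apoptotic gene, 2.27-fold higher (edgeR adjusted p = 0.00483 and 0.00753). Ikzf2 showed no such separation of the genotypes. Without Runx3 +/WRPW libraries 1, 2 and 3 in turn, 7, 8 and 6 genes of this list were called, of 768, 1431 and 950 over all genes. Calls were fewer without a Runx3 +/+ library, in this list as over all genes. Without Runx3 +/+ library 1 and 2 in turn, the log2 fold change was -1.46 and -1.19 for Irf4 and -1.62 and -1.02 for Nr4a1. It was -0.99 and -0.97 for Tnfrsf9 and 1.37 and 0.98 for Bcl2l11.

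**Figure D5:**
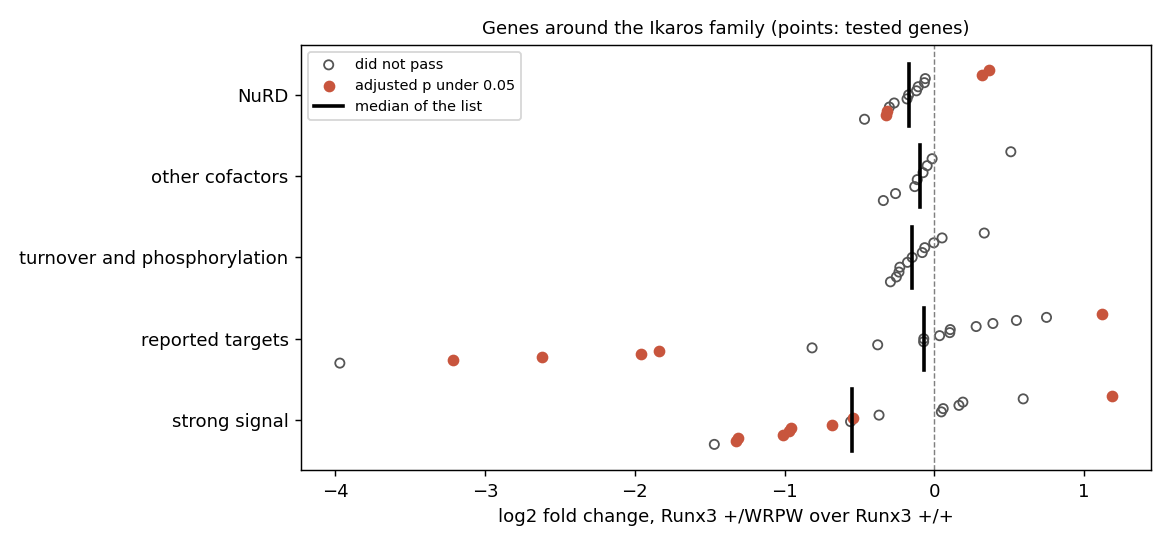
Log2 fold change, Runx3 +/WRPW over Runx3 +/+, of the tested genes in 5 lists around the Ikaros family, with genes at an edgeR adjusted p under 0.05 filled and the median of each list as a black bar. NuRD genes lie close to 0, and 7 of the 8 called strong-signal genes lie below it.

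Because Ikzf2 and Ikzf4 are also transcribed in regulatory T cells and Ikzf3 in B cells, markers of both were read beside them. The 7 regulatory T cell markers summed to 137 to 295 CPM in Runx3 +/+ and 394 to 445 CPM in Runx3 +/WRPW, so that the sum moved in the direction of Ikzf4. Of the 6 tested, 1 rose (Izumo1r) and 2 fell (Foxp3 and Ctla4). Izumo1r made up most of the sum, with 177 and 63.5 against 349, 376 and 379 CPM, and Foxp3 was at most 1.19 CPM in the libraries where Ikzf4 was high. These 3 markers were named after their values were seen. The 7 B cell markers with a row summed to 9.85 and 9.99 CPM in Runx3 +/+, and to 4.32, 12.4 and 3.26 CPM in Runx3 +/WRPW libraries 1, 2 and 3. Ikzf3 was at least at 493 CPM. In library 2, the library with the wider set of detected genes, Ebf1 made up 7.14 CPM of the sum. Of the B cell markers 2 were tested, Cd79b and Cd79a, both encoding parts of the B cell receptor. Cd79b fell, in the direction of Ikzf3 (log2 fold change -1.96, edgeR adjusted p = 0.00426), and Cd79a did not pass (-0.42, adjusted p = 0.53). Ms4a1, which encodes a B cell surface protein, was at 0 CPM in 1 library of each genotype and at most at 1.11 CPM, in Runx3 +/WRPW library 2. Cd79b, Ebf1 and Ms4a1 were named after their values were seen. The part of other cells in the differences was not tested, and fewer cells of a type cannot be told apart from less RNA per cell in these bulk samples.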

How the data were processed

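Each deposited file holds the unnormalized read counts of 1 sample by gene symbol. The genome was mm10, and the tools were featureCounts 2.0.8, HISAT2 2.2.1, cutadapt 4.0 and edgeR 3.36.0, per the submitters' processing notes. Annotation, strand and multi-mapping settings were not stated there. The file headers of Runx3 +/+ library 2 (numbered 3) and Runx3 +/WRPW library 2 (an aligner's default name) differ from the labels, and the sample records were followed. Pairs of libraries within a genotype differed by a chi-square of at least 14.2 per gene, more than sampling noise.

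The 13666 genes kept by filterByExpr (minimum count 10) entered a quasi-likelihood fit (TMM factors, glmQLFit, glmQLFTest of edgeR 4.0.16 under R 4.3.3), and p-values were Benjamini-Hochberg adjusted over all of them. The SE is the absolute log2 fold change over the square root of F. CPM are counts over the library total times its TMM factor. Gene models are GENCODE M21. A floor of 3 counts is 0.0686 to 0.191 CPM per library, for counting error only. On simulated counts with 13417 genes in the fit, changes of 1.5-fold and 2-fold were called in 34.0% and 61.2% of cases, and 9 of 137 calls were false. The real fit had 1855 calls, and the adjustment depends on the share of changed genes, so these rates need not hold for the members.

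The members and lists were chosen with earlier results of these data known. Named genes are the 5 members, up to 4 called genes per list with the smallest p-values, the 3 genes nearest in pattern to each member (mean log2 CPM of at least 1, no predicted models or receptor segments, prior count 2), the nearest coding genes and Runx3; Chd4 and Crbn were named after their values were seen. Alternatives were RLE and upper-quartile factors, no filter, a stricter filter (1 CPM throughout a genotype), DESeq2 1.42.0, limma-voom (limma 3.58.1), the replicate number as a block and each library left out. Promoter and protein sequences were not used. Some marker, likeness and sequence results are not reported here.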

Additional observations from a re-analysis of the deposited data

How the results depend on the processing

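Under 12 alternatives per member, Ikzf4 was higher in each, and its call was lost only in the fits without Runx3 +/+ library 1 or 2; with 1 library left out its log2 fold change was 0.72 to 0.85, and adjusted p ran from 0.00934 to 0.112. Ikzf1 and Ikzf3 were lower under all 12. DESeq2 alone called them (-0.15 and -0.27), and so counted 3 changed members, while 0 or 1 were called with 1 library left out. Ikzf2 changed sign with upper-quartile factors (0.00199) and ran from -0.35 to 0.34 with 1 library left out, and Ikzf5 from -0.11 to 0.0127. The genes changed numbered 1855, against 1079 with no low-count filter (28583 genes tested), 2705 in DESeq2 and 277 to 1431 with 1 library left out; the share called higher was 46.0%, against 51.0% with upper-quartile factors, 41.0% with no low-count filter and 37.1% to 42.7% with 1 library left out, lowest without Runx3 +/+ library 1.

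The replicate numbers do not pair the samples in the labels, and same-numbered libraries deviated together little (r = -0.05 and 0.00244 across 13666 genes, which are not independent replicates). With the replicate block, 754 genes were changed, Ikzf4 remained called (0.81, adjusted p = 0.0175), and 0 NuRD genes, 3 reported targets and 5 strong-signal genes were called; Apc2 changed sign (-0.0438).

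NuRD genes called were 0 with no low-count filter and 0 to 2 with 1 library left out. DESeq2 called 2 turnover and phosphorylation genes, 8 reported targets and 2 neighbour genes, against 2705 of all 13666 genes tested. With 1 library left out, these lists had 0 to 1, 1 to 5 and 0 to 1, and the strong-signal list 2 to 8. The cofactor list had 0 in every fit. Left-out libraries turned the sign of Hspa4l (-0.49 to 0.36), Chordc1 (-0.48 to 0.32), Apc2 (-0.0834 to 0.46), Msantd4 (-0.0891 to 0.0282), Grb7 (-0.0552 to 0.71) and Pstk (-0.21 to 0.11), none of them called. Levels per kilobase by the longest coding transcript, chosen after the data were seen, were 170 for Ikzf1, 152 for Ikzf3 and 7.60 for Ikzf5. Where no cause is named here, the cause was not tested. Depth limits most the genes near the floor of 3 counts, and each member had at least 476 counts per library.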

Other observations

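The nearest patterns to Ikzf2 included chaperone genes, so 12 heat-shock genes and co-chaperones were read beside it, a list chosen after that was seen and given as values with no test. In 6 of the 12 (Hspa4l, Chordc1, Hsph1, Hspa8, Hsp90aa1 and Hspa4) the libraries within each genotype had the same order as for Ikzf2. In that order Runx3 +/+ library 2 was above library 1, and Runx3 +/WRPW library 3 was above library 1, with library 2 lowest. Of 10244 genes, 1548 (15.1%) had this order. Hspa4l and Chordc1 had been picked as nearest in pattern to Ikzf2, so their order follows from the choice. Hspa1a is not among the 10244 genes, and these shares are not a like comparison. Ikzf2 was 1.58-fold higher in Runx3 +/+ library 2 than in library 1 and 1.98-fold higher in Runx3 +/WRPW library 3 than in library 2. For Hsp90aa1, the inducible Hsp90 gene, these ratios were 1.80 and 1.78, with levels of 170 and 306 CPM in Runx3 +/+ and 165, 157 and 279 CPM in Runx3 +/WRPW. For Hsph1 they were 2.21 and 1.75. Dnajb1, Hspa1b, Hspa1a, Hsp90ab1, Hspd1 and Hspe1 did not follow Ikzf2 in Runx3 +/WRPW library 2, which was above library 1. For Hsp90ab1, Hspd1 and Hspe1 it was above by a small margin. Runx3 +/WRPW library 2, the lowest for Ikzf2, also had the lowest total count (15715242), and the part of depth in the shared pattern was not tested.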
